A study of Homo sapiens with 8 samples.

Results

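The genes described here encode 9 members of the S100 family, S100A2, S100A4, S100A6, S100A10, S100A11, S100A13, S100A14, S100A16 and S100P. They were taken by gene symbol from the 25192 symbols of the deposited gene tables, which list 21 S100 genes in all. The set was put together with earlier results of these data in view, because S100A4 and S100A10 were lower after PrxII depletion in both cell lines. Their change after depletion is therefore given as a description without a test. The difference between the cell lines is tested, except for S100A4 and S100A10, since the choice rested on their levels with control and with PrxII siRNA.

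HT29 and SW480 are human colorectal cancer cell lines that carry a truncated APC, the scaffold that normally keeps β-catenin low. Each line was transfected for 36 h with a control siRNA, which the study's legends give as one against firefly luciferase, or with an siRNA against PRDX2, the gene of the peroxidase peroxiredoxin II (PrxII). Each of the 4 groups holds 2 libraries. HT29 cells were grown in McCoy's 5A medium and SW480 cells in RPMI1840, both with 10% fetal bovine serum, so cell line and medium cannot be told apart. Whether the libraries of both lines were made and sequenced together is not stated, so a batch cannot be told apart from cell line either. Each line is a single culture model, and neither the sequence of the PrxII siRNA used for sequencing nor whether the duplicates were separate transfections is given in the sources used here. The p-values below thus measure only the spread between these libraries, which may be technical.

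S100 proteins are small proteins with paired EF-hand loops that mostly act as dimers. Binding of calcium opens a groove through which they hold target proteins such as annexins, myosin heavy chains and tumor suppressors, and some are released and act on cell surface receptors. Most S100 genes stand together in the epidermal differentiation region of chromosome 1q21. Several are raised in colorectal tumors, and S100A4 is a known target gene of β-catenin in colon cancer cells.

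Of the 9 genes, 8 lie on chromosome 1 of GRCh37 (hg19) and all of those 8 are on the minus strand. From S100A10 to S100A13 they span 1648.4 kb. S100A10 lies from 151955391 to 151966335, and S100A11 from 152004982 to 152020383. The other 6 are S100A6 (153507075 to 153508720), S100A4 (153516089 to 153522612), S100A2 (153533584 to 153540366), S100A16 (153579362 to 153585621), S100A14 (153586731 to 153589462) and S100A13 (153591263 to 153603836). S100P lies apart, on the plus strand of chromosome 4 from 6695605 to 6698897. S100A4 overlaps S100A3 on the same strand, and S100A13 overlaps S100A1 on the opposite strand. The library kit does not mark strand, so reads from the overlapping stretches cannot be assigned by strand.

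The promoters of S100A4 and S100A10 are shown because these genes were lower in both lines and their start regions differ in make-up. RefSeq promoters (GRCh38.p14) run from 250 bases before to 50 bases after the annotated start, and all 9 genes were matched, with 13 promoters between them, some of which overlap. The S100A4 promoter (chr1:153545757-153546056, minus strand, GC content 60.7%) has the TATA box TATAAA, in capitals, beginning 31 bases before the start. The S100A10 promoter (chr1:151993810-151994109, minus strand, GC content 71.7%) has a GC box GGGCGG, in capitals, beginning 167 bases before the start, and no TATAAA. Windows of 30 bases around the TATA box, again in capitals, are shown for S100P (chr4:6693838-6693867, plus strand) and for 1 of the S100A13 promoters (chr1:153627517-153627546, minus strand).
S100A4: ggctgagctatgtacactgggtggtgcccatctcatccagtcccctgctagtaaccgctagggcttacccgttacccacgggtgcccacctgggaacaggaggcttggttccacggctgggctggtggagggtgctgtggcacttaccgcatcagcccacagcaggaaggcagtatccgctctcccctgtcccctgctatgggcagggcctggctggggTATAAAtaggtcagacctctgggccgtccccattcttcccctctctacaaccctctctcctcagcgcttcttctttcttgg
S100A10: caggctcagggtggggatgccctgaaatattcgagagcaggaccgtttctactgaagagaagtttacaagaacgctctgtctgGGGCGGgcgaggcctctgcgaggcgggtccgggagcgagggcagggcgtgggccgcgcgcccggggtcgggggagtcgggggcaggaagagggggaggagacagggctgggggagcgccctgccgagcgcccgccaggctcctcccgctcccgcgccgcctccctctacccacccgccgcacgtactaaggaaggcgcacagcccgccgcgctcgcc
S100P: atgaggctgcctTATAAAgcaccaagaggc
S100A13: ttccccgctgctTATAAAcctcagccctga

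Motifs were searched on both strands in windows of 300 bases. TATAAA was found in 3 of the 13 promoters, against 11.5% of the 35116 RefSeq promoters. GGGCGG was found in 5 of 13, against 45% of all promoters. The TCF/LEF letters (CTTTG followed by 2 bases that are each A or T), the motif family through which β-catenin partners bind DNA, were in 0 of 13 windows and in 13.8% of all promoters, which says only that these letters are not in these windows. The AP-1 letters TGANTCA were in 1 of 13 (S100A2) and 7.71% of all. The antioxidant response letters TGACNNNGC were in 3 of 13 (S100A13, S100A14 and S100A16) and 13.3% of all. TGANTCA and TGACNNNGC can overlap, and a match is not evidence of a bound site.

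Levels are given in TPM (transcript abundance scaled to the same total in every library), which is scaled by transcript length and so can be compared between genes. Differences are log2 fold changes fitted to the expected read counts. Their standard errors (SE) were calculated back from the F statistic of the quasi-likelihood test of edgeR, so they are not independent of that test. The counts added up to 8857442 to 10164137 per library, and 3 counts were worth 0.295 to 0.339 CPM (counts scaled to library size), a limit that covers counting error only. PRDX2 was at 331 and 343 TPM with control siRNA and at 193 and 194 TPM with PrxII siRNA in HT29 cells (log2 fold change -0.87, SE 0.05, adjusted p = 1.15e-09, quasi-likelihood test of edgeR). In SW480 cells it was at 482 and 560 TPM against 169 and 172 TPM (-1.70, SE 0.12, adjusted p = 6.18e-04, edgeR). The duplicates were close to sampling noise in 3 groups, with a chi-square per degree of freedom of 1.43 to 2.13, and further apart in the SW480 control group, at 11.2. The difference between the SW480 control duplicates went with the GC content of the transcripts (Spearman's rho -0.719 across 14035 genes, which are not independent, against -0.192 to -0.13 in the other groups). Values for SW480 cells are therefore also given without each control library or with a GC correction where they move. Epithelial markers were at 1 TPM or more for 8 of 8 genes in HT29 cells and 7 of 8 in SW480 cells. PTPRC, the defining leukocyte marker, had 0 counts in every library, and the summed level of 5 fibroblast markers was 1.04 to 11.34 TPM. In HT29 cells the summed level of 5 leukocyte markers was 4437 to 4662 TPM, against 9.63 to 13.27 TPM in SW480 cells. LYZ, the lysozyme gene, alone made up 4429 to 4652 TPM of the HT29 sum, and CD3E was at 0 counts in both HT29 groups. CD14 was at 6.9 to 9.22 TPM in HT29 cells and 2.94 to 5.72 TPM in SW480 cells. CD79A was at 0 to 0.97 TPM over all libraries. The summed level of 3 endothelial markers was 0.1 to 1.96 TPM. The part of these markers in the results was not tested.

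S100A10, also called p11, does not bind calcium itself and is held with annexin A2 in a complex that binds plasminogen at the cell surface. In HT29 cells S100A10 was at 1154 TPM in both control libraries and at 808 TPM in both PrxII siRNA libraries. In SW480 cells it was at 884 and 783 TPM in the control libraries and at 219 and 228 TPM in the PrxII siRNA libraries. Both PrxII siRNA libraries were below both controls in each line, and the values of the groups did not overlap. The log2 fold change was -0.58 (SE 0.03) in HT29 cells and -1.99 (SE 0.11) in SW480 cells. Without SW480 control replicate 1 or 2 it was -1.91 or -2.07, and with the GC correction it was -1.92. Over 12 alternative settings it ran from -0.60 to -0.57 in HT29 cells. In order of level, HT29 control cells stood first, SW480 cells with PrxII siRNA stood last, and between them the SW480 control libraries lay on both sides of the HT29 PrxII siRNA libraries. Ranked among all genes of a library, S100A10 went from 99 and 100 to 138 and 140 in HT29 cells and from 134 and 153 to 797 and 734 in SW480 cells.

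S100A4 binds the heavy chain of nonmuscle myosin IIA and is known for promoting cell motility and metastasis. The study counted it among the β-catenin target genes that it picked from these HT29 libraries for their lower level. It also listed S100A4 among those that were lower in SW480 cells. S100A4 was at 1483 and 1475 TPM in HT29 control libraries and at 1111 and 1146 TPM with PrxII siRNA. In SW480 cells it was at 3028 and 2462 TPM with control siRNA and at 1693 and 1753 TPM with PrxII siRNA. The PrxII siRNA values lay below the control values in both lines, and the control duplicates of SW480 cells were the furthest apart. The log2 fold change was -0.45 (SE 0.04) for HT29 and -0.75 (SE 0.11) for SW480, where it was -0.61 without control replicate 1 and -0.885 without control replicate 2. The S100A4 level in SW480 cells with PrxII siRNA still lay above that of both HT29 control libraries.

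The other 7 genes stood closer to their controls than S100A10 did, apart from S100A2 in HT29 cells, and S100P could not be fitted in SW480 cells. S100A2, a mainly nuclear epithelial member that binds p53, was at 21.7 and 29.6 TPM in HT29 control cells and at 15.1 and 18.2 TPM after PrxII depletion (log2 fold change -0.69, SE 0.18). It was at 193 and 192 TPM and then 169 and 147 TPM in SW480 cells (-0.37, SE 0.12). In HT29 cells its counts were few, and the log2 fold change was -0.90 without control replicate 1 and -0.44 without control replicate 2.

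S100A6 (calcyclin), a cytoplasmic member that binds the ubiquitin ligase adaptor CACYBP, was the most abundant S100 transcript in HT29 cells. Its 7000 and 7200 TPM in control libraries made it the gene of rank 5 in the library. With PrxII siRNA it was at 6821 and 6875 TPM (-0.12, SE 0.02), so the groups did not overlap but were close. In SW480 cells it was at 2061 and 2071 TPM and then 2143 and 2176 TPM (-0.02, SE 0.09), a value that became -0.23 under the GC correction. TPM and the fitted fold change thus had opposite signs for S100A6 in SW480 cells.

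S100A11, which binds annexin A1 at membranes, was at 1559 and 1494 TPM and then 1414 and 1499 TPM in HT29 cells (-0.13, SE 0.04). Its SW480 levels were 1533 and 1840 TPM and then 1668 and 1650 TPM (-0.11, SE 0.12), and the groups overlapped in TPM in both lines. The SW480 value was -0.245 without control replicate 1 and 0.04 without control replicate 2. S100A13, which takes part in the unconventional export of fibroblast growth factor 1, was at 209 and 183 TPM and then 186 and 182 TPM in HT29 cells (-0.14, SE 0.07). Its SW480 values were 338 and 305 TPM and then 297 and 320 TPM (-0.14, SE 0.12), with -0.08 without control replicate 1, -0.21 without control replicate 2 and -0.255 under the GC correction. In TPM the duplicates of S100A11 and S100A13 thus spread about as far as the groups stood apart. In normalised CPM the HT29 groups did not overlap for S100A11 (395 and 379 against 342 and 365). They did not overlap for S100A13 either (55.7 and 48.3 against 47.5 and 47.1). The SW480 groups overlapped in CPM for S100A11 but not for S100A13.

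S100A14, an epithelial member, and S100A16 stand next to each other on the chromosome. S100A14 was at 187 and 183 TPM and then 159 and 160 TPM in HT29 cells (-0.28, SE 0.05), with no overlap. It was near 5 TPM throughout in SW480 cells, from 4.59 to 6.62 TPM. S100A16 was at 347 and 337 TPM and then 324 and 321 TPM in HT29 cells (-0.15, SE 0.04). In SW480 cells S100A16 was higher in both PrxII siRNA libraries, at 305 and 306 TPM, than in the control libraries, at 236 and 254 TPM (0.23, SE 0.11; 0.11 under the GC correction). S100P, which binds ezrin and is known as an extracellular ligand of the receptor AGER, was the one gene of the set that was higher in HT29 cells after PrxII depletion. It was at 1250 and 1296 TPM and then 1473 and 1440 TPM (0.13, SE 0.03). SW480 cells gave it 2 and 1 counts in the control libraries and 11 and 6 counts with PrxII siRNA, too few for the filter of at least 10 counts in at least 2 libraries, so 8 of the 9 genes entered that fit.

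**Figure D1:**
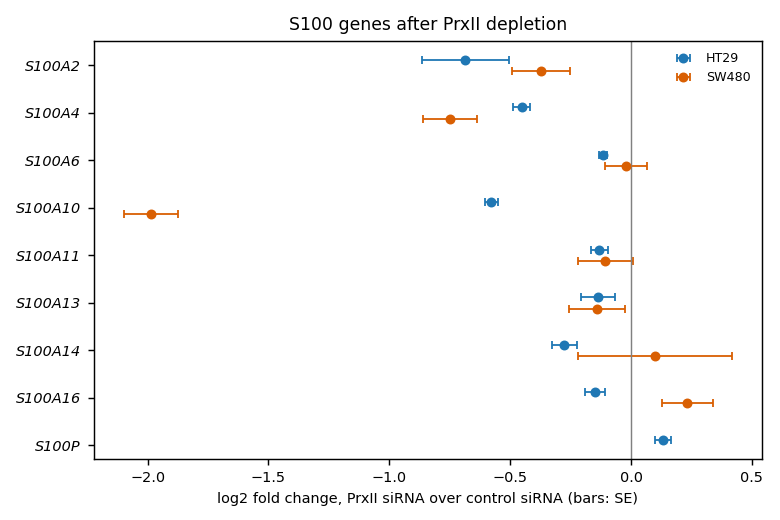
Log2 fold change of PrxII siRNA over control siRNA for each S100 gene in HT29 (blue) and SW480 cells (orange), with bars for the standard error; S100P has no SW480 point. S100A10 is the lowest point, at -1.99 in SW480 cells, and S100A2, S100A4 and S100A10 lie furthest below 0 in both lines.

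In HT29 cells 7 of the 9 genes were lower and 1 was higher at an adjusted p under 0.05, where 9.82% of the 12961 genes tested were lower and 7.76% higher. In SW480 cells 2 of the 8 tested (S100A4 and S100A10) were lower and 0 higher, against 2.08% of 14112 genes lower and 1.22% higher. The choice of genes rests on this same contrast, so nothing is read from these counts. The HT29 calls of the genes other than S100A4 and S100A10 did not hold in all 12 alternative settings, and neither did the SW480 call of S100A4. The median log2 fold change was -0.15 over the 9 genes in HT29 cells and -0.12 over the 8 tested in SW480 cells, beside 0 and 0.002 over all genes tested. In bulk RNA, fewer cells of a type and less RNA per cell cannot be told apart.

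The summed level of the 9 genes was 13211 and 13351 TPM in HT29 control cells and 12311 and 12449 TPM after PrxII depletion. The SW480 sum was 8280 and 7911 TPM and then 6506 and 6588 TPM. S100A6 alone supplied 53.0% and 53.9% of the sum in HT29 control libraries, while S100A4 supplied 36.6% and 31.1% in SW480 control libraries. The share of S100A10 was 8.73% and 8.65% in HT29 control cells and 6.56% and 6.49% with PrxII siRNA. In SW480 cells its share went from 10.7% and 9.89% to 3.36% and 3.45%, and that of S100A6 from 24.9% and 26.2% to 32.9% and 33.0%. After depletion S100A6, not S100A4, was the most abundant S100 transcript in both SW480 libraries.

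The difference of the PrxII siRNA effect between lines (SW480 minus HT29) was -1.41 on the log2 scale for S100A10 (SE 0.10), -0.30 for S100A4 (SE 0.12) and 0.38 for S100A16 (SE 0.10). Across 15 alternative settings it ran from -1.48 to -1.32 for S100A10, from -0.42 to -0.16 for S100A4 and from 0.27 to 0.45 for S100A16. PRDX2 itself differed by -0.84 (SE 0.12, adjusted p = 0.0128, edgeR), being depleted further in SW480 cells. The adjusted p for PRDX2 was 0.122 to 0.159 when any library other than a SW480 control was left out. Whether the depth of depletion has a part in the S100A10 difference was not tested.

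Between the cell lines, S100P and S100A14 were far lower and S100A6 lower in SW480 than in HT29 control cells, and S100A2 was higher. S100A2 was 6.86-fold higher in SW480 control cells (log2 fold change 2.78, SE 0.16, adjusted p = 1.42e-06, edgeR). S100A6 was lower by a log2 fold change of -1.92 (SE 0.08, adjusted p = 2.11e-07, edgeR). S100A14 was at 187 and 183 TPM against 5.54 and 4.59 TPM, and the ratio of its summed counts, HT29 over SW480, was 40 (95% exact interval 29.4 to 55.7, counting error only). S100P had 5268 counts in the HT29 control libraries together and 3 in the SW480 control libraries, a ratio of 1750 (598 to 8480). Its test passed the filter only through HT29 cells, where it is high, and is not used as support. Of the 8 genes other than S100P, 2 were lower and 1 was higher beyond the 2-fold threshold, against 15.7% and 21.5% of the 14346 genes tested.

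S100A4 was higher in SW480 control cells by less than 2-fold (0.77, SE 0.11), and so was S100A13 (0.56, SE 0.13, adjusted p = 0.00394, edgeR). S100A10 (-0.60, SE 0.10) and S100A16 (-0.61, SE 0.11, adjusted p = 8.76e-04, edgeR) were lower by less than 2-fold. These values moved over 12 alternative settings without changing sign. They ran from 0.574 to 0.961 for S100A4, 0.386 to 0.682 for S100A13, -0.705 to -0.459 for S100A10 and -0.718 to -0.472 for S100A16. The lower ends came from the length correction. The upper ends came without SW480 control replicate 2, or without SW480 control replicate 1 for S100A16. S100A11 differed by 0.01 (SE 0.12, adjusted p = 0.948, edgeR), and its sign changed under other settings. The S100A4 and S100A10 values are descriptions, since the choice of genes rested on their levels in the control libraries too.

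In the PrxII siRNA libraries, which the comparison of controls did not use, S100A2 (3.10, SE 0.12, adjusted p = 1.34e-12), S100A6 (-1.81, SE 0.02, adjusted p = 4.56e-19) and S100A14 (-4.93, SE 0.12, adjusted p = 6.01e-15, all edgeR) again differed beyond 2-fold. The count ratio of S100A14 was 30.8 (23.2 to 41.9) and that of S100P 369 (230 to 633), from 5903 against 17 counts. S100A10 now differed by -2.00 (SE 0.04), beside -0.60 in the control libraries, and S100A4 by 0.48 (SE 0.04), beside 0.77. Both are descriptions, since the choice of genes rested on the S100A4 and S100A10 levels in the PrxII siRNA and control libraries. S100A16 differed by -0.23 (SE 0.04, adjusted p = 9.7e-05, edgeR), beside -0.61. S100A13 was higher by 0.56 (SE 0.06) in these libraries too, and S100A11 differed by 0.04 (SE 0.04, adjusted p = 0.337). Leaving S100P out again, 3 of 8 genes, S100A10 among them, were lower and 1 higher beyond 2-fold, where 15% and 22.2% of 14438 genes were. These line differences share libraries with the depletion contrasts, so the values are given side by side only.

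Of the 12 other S100 genes in the tables, 2 (S100A3 and S100A5) passed the filter in each line. With edgeR 0 of the 2 passed the test after PrxII depletion in HT29 cells (0 at an unadjusted p under 0.05, 0 with DESeq2) and 0 of the 2 in SW480 cells (1 at an unadjusted p under 0.05, 0 with DESeq2). S100A3, which overlaps S100A4, was at 3.84 and 1.95 TPM in HT29 control cells and at 261 and 275 TPM in SW480 control cells. Its 12 and 6 counts in the HT29 controls let it through the filter only by its SW480 level, so no test of that difference is given. In SW480 cells with PrxII siRNA S100A3 was at 332 and 361 TPM, while S100A4 was lower. Since both genes share a strand and part of the locus, the split of reads between them is uncertain. S100A5 was lower in SW480 cells in the PrxII siRNA libraries (-1.66, adjusted p = 4.53e-05, edgeR). In the control libraries it was lower by just under 2-fold (-0.993, adjusted p = 0.016, edgeR). Its counts in SW480 cells were few, at 14 and 18 with control siRNA and 14 and 13 with PrxII siRNA. Of the fused-type S100 genes, which encode large proteins of the skin barrier, FLG and TCHH entered the comparison of control cells, both only through their SW480 counts, so their levels are given without a test. FLG was at 0 and 0.106 CPM in HT29 and at 5.73 and 9.17 CPM in SW480 control cells, and TCHH at 1.36 and 0.851 CPM and at 6.83 and 5.2 CPM. After depletion 0 of 1 tested in HT29 cells (1 at an unadjusted p under 0.05) and 0 of 3 in SW480 cells (0) passed, with 0 by DESeq2 in each. Over all genes tested 9.82% were lower and 7.76% higher in HT29 cells, and 2.08% and 1.22% in SW480 cells.

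Intracellular partners of the S100 proteins were read from a list of 12, all of which passed the filter. In HT29 cells ANXA1, ANXA2 and AHNAK fell and ANXA6 and MYH9 rose, while 7 did not pass the test (median -0.05, beside 0 over all genes). That is 3 lower and 2 higher of 12, where 9.82% of all genes tested were lower and 7.76% higher, and DESeq2 called 4 of the 12. ANXA1, the annexin that S100A11 binds, was at 588 and 584 TPM with control siRNA and at 344 and 350 TPM with PrxII siRNA in HT29 cells (log2 fold change -0.82, SE 0.03, adjusted p = 1.86e-11, edgeR). In SW480 cells ANXA1 was at 732 and 606 TPM and then 241 and 237 TPM (-1.57, SE 0.12, adjusted p = 7.68e-04, edgeR). It was the 1 partner of 12 that passed in SW480 cells, where the median was -0.11 beside 0.002 and where 2.08% of all genes were lower and 1.22% higher. ANXA1 and S100A10 thus had the lowest values of their lists in SW480 cells.

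ANXA2, the partner of S100A10, was at 940 and 972 TPM and then 892 and 876 TPM in HT29 cells (-0.18, SE 0.02, adjusted p = 5.29e-05, edgeR; 0.193 with all 8 libraries in one fit). Its SW480 levels were 1652 and 1579 TPM and then 1419 and 1503 TPM (-0.24, SE 0.08), which did not pass (adjusted p = 0.127). ANXA2 mRNA was thus above S100A10 mRNA in TPM in all SW480 libraries and in the PrxII siRNA libraries of HT29 cells, but below it in the HT29 controls. MYH9, the myosin heavy chain that S100A4 binds, rose by 0.14 (SE 0.02, adjusted p = 4.47e-05) and AHNAK, a scaffold that docks on the complex of S100A10 and annexin A2, fell by 0.10 (SE 0.02, adjusted p = 4.34e-04) in HT29 cells. Neither passed with all 8 libraries in one fit (adjusted p = 0.503 and 0.624). ANXA6 rose in HT29 cells from 6.71 and 5.22 TPM to 11.8 and 11.7 TPM (0.91, SE 0.15, adjusted p = 2.58e-04), while DESeq2 gave it no adjusted p. The effect differed between lines for ANXA1 (-0.75, adjusted p = 0.0168) and ANXA6 (-0.94, adjusted p = 0.0292), both more negative in SW480 cells, in a test where 0.616% of 14772 genes were called lower and 0.508% higher. Leaving out any library other than a SW480 control ended both calls, with adjusted p = 0.141 to 0.166 for ANXA1 and 0.0837 to 0.22 for ANXA6.

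Of 4 cell surface receptors of S100 proteins, BSG, which encodes basigin, fell in HT29 cells by 0.10 (SE 0.03, adjusted p = 0.0136, edgeR), a call that DESeq2 (adjusted p = 0.101) and the fit of all 8 libraries (0.57) did not make and that ended without control replicate 2 (0.057), PrxII siRNA replicate 1 (0.093) or PrxII siRNA replicate 2 (0.0513). In SW480 cells 0 of the 4 passed with edgeR (1 at an unadjusted p under 0.05, 0 with DESeq2). Over all genes tested 9.82% were lower and 7.76% higher in HT29 cells, and 2.08% and 1.22% in SW480 cells. AGER, the receptor for advanced glycation end products, was at 2.52 to 3.65 CPM in HT29 cells and 2.2 to 4.35 CPM in SW480 cells. Between lines, TLR4 was higher in SW480 control cells (1.42, adjusted p = 1.62e-04) and ALCAM lower (-2.20, adjusted p = 7.89e-06), and both differed the same way beyond 2-fold in the PrxII siRNA libraries.

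The plasminogen system, on which S100A10 acts at the cell surface, was read from a list of genes. Among 5 tested in HT29 cells PLAUR, the urokinase receptor, fell by 0.21 (SE 0.07, adjusted p = 0.0337, edgeR). ENO1, a glycolytic enzyme that also binds plasminogen, fell by 0.08 (SE 0.02, adjusted p = 0.00261, edgeR). Over all genes tested in HT29 cells 9.82% were lower and 7.76% higher. The PLAUR call ended when any of the 4 HT29 libraries was left out (adjusted p = 0.0707 to 0.151) and with DESeq2 (0.366). The ENO1 call ended without PrxII siRNA replicate 1 (adjusted p = 0.1) and with all 8 libraries in one fit (0.629). Between the lines, PLAU, urokinase, was higher in SW480 than in HT29 control cells (6.22, SE 0.21, adjusted p = 7.79e-08, edgeR). PLAT, tissue plasminogen activator, had 2 counts in each HT29 control library and 506 and 612 in the SW480 controls, and passed the filter only through the latter. SERPINB2 had 0 counts in HT29 cells and 2.75 to 3.85 CPM in SW480 control cells. SW480 control cells thus had less S100A10 and more PLAU mRNA than HT29 control cells.

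Genes near the S100 loci give the local background. With all other S100 genes and the fused-type S100 genes left out, 18 genes lay within 250 kb of one of the S100 genes on chromosome 1. Of these, 11 were tested in HT29 cells and 12 in SW480 cells. With edgeR 0 of 11 passed in HT29 cells (0 at an unadjusted p under 0.05, 0 with DESeq2) and 0 of 12 in SW480 cells (2 at an unadjusted p under 0.05, 0 with DESeq2). Over all genes tested 9.82% were lower and 7.76% higher in HT29 cells, and 2.08% and 1.22% in SW480 cells. With so few neighbours, 0 calls is not read as a result. The median log2 fold change of the neighbours was 0.04 for HT29 and 0.03 for SW480. The 9 neighbours at 10 CPM or more, among them THEM4 near S100A10 and the chromatin factor CHTOP near S100A13, ran from -0.11 to 0.07 in HT29 cells and from -0.10 to 0.31 in SW480 cells. S100A11, the next S100 gene to S100A10, was at -0.13 and -0.11, beside -0.58 and -1.99 for S100A10. S100A6, also near S100A4, was at -0.12 and -0.02, beside -0.45 and -0.75 for S100A4.

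**Figure D2:**
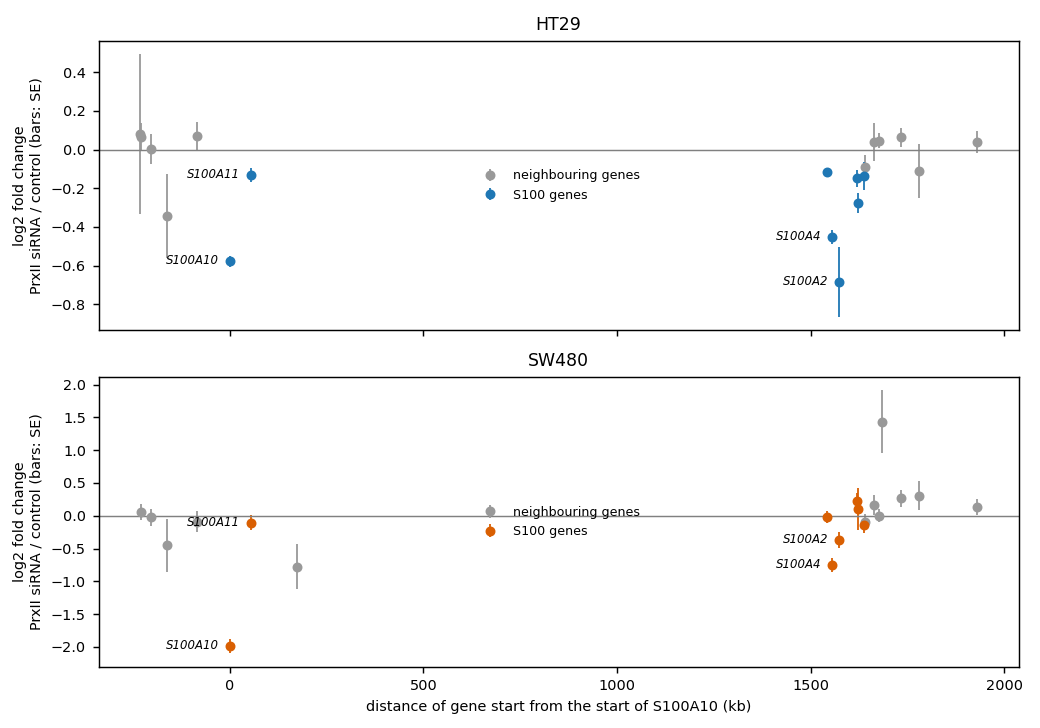
Log2 fold change of PrxII siRNA over control siRNA against the distance of each gene start from that of S100A10 in kb, for S100 genes (colored) and neighbouring genes (grey) in HT29 (upper) and SW480 cells (lower), with bars for the standard error. S100A10 is at -0.58 and -1.99 while the tested neighbours range from -0.34 to 0.08 in HT29 cells and from -0.78 to 1.44, both ends from genes of low count, in SW480 cells.

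The profile over the 8 libraries most like that of S100A4, by the mean absolute difference of centred log2 CPM among 10503 genes, belonged to DNAJA1, a cochaperone of heat shock protein 70 (0.062), SEC61G, a subunit of the protein channel of the endoplasmic reticulum (0.071), and KIF3A, a kinesin motor (0.075). DNAJA1 was at -0.42 in HT29 cells and -0.60 in SW480 cells, beside -0.45 and -0.75 for S100A4. The profiles closest to S100A10 were further from it, at 0.276 for UBE2Q2, 0.277 for RIN2 and 0.317 for SIAE. UBE2Q2 was at -0.44 and -1.09 and RIN2 at -0.32 and -1.31, so that no listed gene matched the -1.99 of S100A10 in SW480 cells. Control libraries are shared by all of these values.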

How the data were processed

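Messenger RNA was sequenced from total RNA with an unstranded TruSeq kit as paired-end reads, and libraries were grouped by their labels. The authors aligned reads with MapSplice to hg19, and RSEM on refGene gave the deposited expected count and TPM per gene symbol. The methods describe this for the HT29 samples and the same was not stated separately for SW480. TPM, scaled by the authors for length and library total, was used as deposited for levels. Of the expected counts 3.18% were not whole, and all were rounded.

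Counts were tested with edgeR 4.0.16 (glmQLFit, glmQLFTest, TMM) for genes that reached 10 counts in 2 or more libraries of a fit, with Benjamini-Hochberg adjustment over all genes and a threshold of 0.05, and at least 2-fold between lines. The effect difference between lines was fitted over all 8 libraries. Alternatives were DESeq2 1.42.0, RLE normalization, leaving the filter out, a block for the replicate number, correction along GC content or length by a loess curve (span 0.5), all 8 libraries together, and leaving out each library; where 1 library remained in a group, it was assumed to vary like the others. Scripts were tested on simulated counts. Of the symbols 89.2% were matched to GENCODE release 44 on GRCh37 for coordinates and GC content.

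The S100 genes, the lists of other genes and the rule for naming them (all 9 S100 genes, PRDX2, list genes that passed the test up to 6 a list, neighbours within 250 kb, and the 3 nearest profiles to S100A4 and S100A10 at a mean of 10 CPM or more) were chosen with earlier results of these data known. The ANXA2 value in SW480 cells and those of AGER, SERPINB2, LYZ, THEM4 and CHTOP were named after their values were seen. Not every gene of the plasminogen list is reported here.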

Additional observations from a re-analysis of the deposited data

Results flagged for a closer look

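The effect of PrxII siRNA differed between the lines for some genes, given here as SW480 minus HT29 on the log2 scale. For S100A10 the difference was -1.41, and for S100A16, where both PrxII siRNA libraries lay below both controls in HT29 cells and above them in SW480 cells, it was 0.38. Both are descriptions, since the S100 genes were chosen on these effects. By the test of the difference itself (edgeR), PRDX2 at -0.84 (adjusted p = 0.0128), ANXA1 at -0.75 (adjusted p = 0.0168) and ANXA6 at -0.94 (adjusted p = 0.0292) differed between lines. For S100A5 (-0.67, adjusted p = 0.389), AGER (0.91, adjusted p = 0.241) and BSG (0.28, adjusted p = 0.14), the normalised CPM of both PrxII siRNA libraries lay to one side of both controls in HT29 cells and to the other in SW480 cells, but the test of the difference did not pass. For AGER that separation in HT29 cells was only 2.67 against 2.63 CPM between the nearest libraries, and in TPM the HT29 groups overlapped (3.67 and 4.94 against 3.96 and 3.46).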

How the results depend on the processing

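S100A10 kept its sign in all 12 alternatives in each line (-0.60 to -0.57 in HT29 cells, -2.07 to -1.91 in SW480 cells), and so did S100A4 (-0.48 to -0.40 and -0.885 to -0.61). Numbers of genes called moved more, and apart from the library left out or the fit used the cause was not tested. In HT29 cells 2279 genes became 871 with DESeq2 and 185 with all 8 libraries in one fit (1574 to 2030 with a library left out). In SW480 cells 466 genes (172 higher, 294 lower) became 1727 with the replicate block (858 higher, 869 lower), 2340 with the GC correction (1184 and 1156), 3132 with both (1621 and 1511) and 2415 with all 8 libraries. Without a library they ranged from 87 to 7364, at 3437 without control replicate 1, 7364 without control replicate 2, 105 without PrxII siRNA replicate 1 and 87 without replicate 2. The difference between lines went from 166 genes (75 higher, 91 lower) to 267 without the filter, 311 with DESeq2, 988 with the GC correction (575 higher, 413 lower), 861 with the block as well (502 and 359), and 6 to 5237 with a library left out, at 11 without either HT29 control, 6 and 8 without HT29 PrxII siRNA replicate 1 and 2, 1371 and 5237 without SW480 control replicate 1 and 2, and 15 and 12 without SW480 PrxII siRNA replicate 1 and 2.

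The labels number duplicates 1 and 2, but deviations of same-numbered libraries correlated at only 0.079 in HT29 and 0.112 in SW480 cells. Nothing states a shared batch, so same-numbered libraries were not paired in the main fits. Whether they were prepared as pairs is not known. With the replicate block S100A10 was at -1.98 in SW480 cells, and 2889 genes were called in HT29 cells.

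Between lines 5345 genes were called in the control and 5359 in the PrxII siRNA libraries, with 57.7% and 59.7% of them higher in SW480 cells. Leaving out a SW480 library took these shares to 47.6% and 44.9% (controls) and 48% and 48.1% (PrxII siRNA), with 3787 and 4217 and with 3828 and 3835 genes called. Leaving out a HT29 library gave 4827 to 4858 and 4866 to 4947 genes. The line difference of S100A11 changed sign in control libraries with no filter (-0.004), the GC correction (-0.001; -0.004 with the block), the length correction (-0.17), and without HT29 control replicate 2 (-0.05) or SW480 control replicate 2 (-0.077), and lay at 0.227 without SW480 control replicate 1. In PrxII siRNA libraries it did so with the GC correction (-0.002; -0.001 with the block), the length correction (-0.17) and without HT29 PrxII siRNA replicate 1 (-0.032), and was 0.125 without SW480 PrxII siRNA replicate 2.

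At this depth S100P and S100A14 in SW480 cells rest on few counts.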
